A study of Mus musculus with 6 samples.

Results

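Renin and angiotensinogen are the enzyme and the substrate with which the renin-angiotensin system begins. They were taken from the authors' table of genes in sorted mouse Leydig cells as the rows named exactly Ren1 and Agt, and both were found, 2 of 10580 listed genes. Leydig cells are the androgen-producing cells of the testis interstitium, and mice make a fetal and then an adult population of them. RNA was sequenced from 6 libraries, 3 of fetal Leydig cells (FLCs) at embryonic day 18.5 and 3 of adult Leydig cells (ALCs) from mice 100 days old. Every animal carried the Nr5a1-GFP transgene in the heterozygous state, no treatment is named, and the embryos came from CD-1 outbred mothers mated with transgenic males. The transgene reports the activity of Nr5a1, a gene of steroidogenic cells that is also expressed in Sertoli cells, so only strongly fluorescent cells were sorted. FLCs of several sorting experiments were pooled to reach the RNA needed for a library, and ALCs also came from more than one experiment.

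For each gene the level used here is the authors' mean of normalized counts, that is read counts divided by a scaling factor per library and averaged over all 6 libraries. It pools FLCs and ALCs, so it gives no level for either population, no spread between replicates and no test between them, and the depth of single libraries is unknown. The listed genes are those with an adjusted p below 0.05 in the authors' comparison of FLCs with ALCs, for 10580 of 10580 genes. Ranks are therefore ranks within that list and not within all expressed genes. A gene of a list that is no row of the table is not analysed here, which says nothing about its expression. How many genes of a list are rows of the table says only how much of the list could be described, since the share of rows among all genes compared was not determined here.

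In the circulation, renin is an aspartic protease released by juxtaglomerular cells of the kidney, and angiotensinogen is a plasma protein made chiefly by the liver. Renin cuts a short peptide, angiotensin I, from the end of angiotensinogen, and angiotensin-converting enzyme trims it to angiotensin II, which acts on its receptors to raise blood pressure and aldosterone. Several tissues, the gonads and adrenal cortex among them, express components of the system locally.

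Agt was among the most abundant transcripts of the list. Its mean was 151631 normalized counts, rank 8 of 10580. The mean of Ren1 was 24384 normalized counts, rank 81. Against a median of 679 normalized counts over all listed genes, both members thus stood at the top of the distribution. Agt made up 0.682% of the sum of the means over all listed genes and Ren1 0.110%, together 0.792%.

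Because both populations had the same number of libraries, the pooled mean bounds the mean of each. One population at least had a mean of Ren1 of 24384 normalized counts or more, and neither can have had one above 48768. For Agt the mean was 151631 or more in at least one population, and at most 303262 in either. Which population held the higher level of a gene is not given by the pooled mean.

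Ren1 (ENSMUSG00000070645.5) lies on the plus strand of chromosome 1 from 133350510 to 133360325 of GRCm38, with 2 annotated transcripts in GENCODE vM21, the longer of which has 9 exons. Agt (ENSMUSG00000031980.9) lies on the minus strand of chromosome 8 from 124556534 to 124569706, with 1 transcript of 5 exons. The union of the annotated exons was 1657 bases for Ren1 and 1891 bases for Agt. For both genes, 0 exonic bases were shared with another gene of that annotation. The authors' methods name another GENCODE release for the counting, and overlaps in that release were not examined. Ren2, a second renin gene that some mouse strains carry next to Ren1 and whose sequence is close to it, is not analysed here. How many renin genes the outbred animals carried is not stated in the sources used here, and reads of such a copy could have been counted for Ren1. The level of Ren1 is therefore best read as a level of renin transcripts.

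Since longer transcripts give more reads, levels of different genes were compared per length, as the mean divided by the kilobases of annotated exon. On this scale Agt had 80186 normalized counts per kb, rank 5 of the 10205 listed genes that matched a single annotated gene by symbol. Ren1 had 14716 per kb, rank 38, and it took rank 102 of 10141 genes per kb of coding sequence. These levels were 541 times and 99.2 times the median of the matched genes, which was 148 per kb. The level of Agt per kb was 5.45 times that of Ren1. The substrate thus outweighed the enzyme in the pooled RNA. This ratio compares 2 means that both pool FLCs and ALCs, and it is not a ratio within either population.

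The markers of the sorted cells give a scale for these values. Insl3, the peptide hormone of Leydig cells, had 414861 normalized counts per kb, a value made uncertain by the overlapping gene Jak3. Cyp17a1, the enzyme that turns progestins into androgens, had 102447 per kb, and Hsd3b1, a dehydrogenase of the same pathway, 88990 per kb. Agt came next but for the glutathione transferase Gstm1, which had 81934 per kb and was named after its values were seen. Cyp11a1, which cleaves the side chain of cholesterol, had 48124 per kb and Star, which brings cholesterol into mitochondria, 21275 per kb. Star was thus 1.45 times as high as Ren1 per kb. In these pooled means Agt thus lay within the range of these 5 markers per kb of exon, and Ren1 below all of them. The order within FLCs or within ALCs is not given by pooled means. Per kb of coding sequence Agt was only 1.02 times as high as Star, against 3.77 times per kb of exon.

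**Figure D1:**
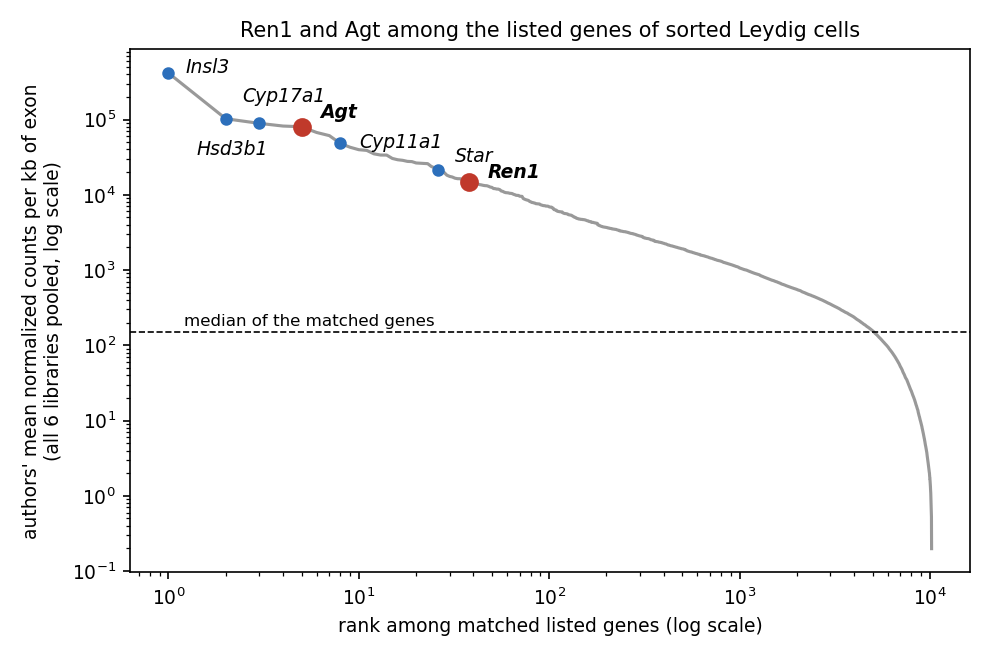
Level of each of the 10205 matched genes, as the authors' mean normalized counts per kb of exon over all 6 libraries (vertical, log scale), against its rank (horizontal, log scale). The grey line is all matched genes, the red points are Agt (rank 5) and Ren1 (rank 38), the blue points are 5 Leydig cell markers, and the dashed line is the median of 148 per kb, far below both red points.

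Transcripts known as markers of other testicular cells were present in the pooled values. Of 17 markers of the cells that surround Leydig cells (immune, endothelial, peritubular myoid, Sertoli and germ cells and interstitial progenitors), 8 were listed, with means from 11.6 to 982 normalized counts and a median of 157. The highest was Csf1r, the receptor for a macrophage growth factor, with 982 normalized counts and 170 per kb, above the median of the matched genes. Amh, the hormone of Sertoli cells, had 137 normalized counts. The remaining 9 markers, those of peritubular myoid cells among them, are not analysed here. Further markers, chosen after values were seen, reached higher levels per kb. Of 7 genes of spermatids, 6 lay above the median of the matched genes, led by Prm2, a protamine of sperm chromatin, with 3570 per kb. Acrv1 lay below that median at 17.2 per kb. Of 7 genes of macrophages, 6 lay above that median, led by Mpeg1, a pore-forming protein, with 2825 per kb. Mpeg1 stood apart from the others, of which Lyz2 was the highest at 805 per kb, and Mrc1 lay below the median at 97.6. Agt and Ren1 were higher per kb than each of these 14 genes. The part of other testicular cells in the values of Ren1, Agt and every other gene named here was not tested. In bulk samples a change in the number of cells of a type and one in RNA per cell cannot be told apart.

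Before renin can act it is made as prorenin, whose inhibitory end must be removed or displaced. Of 8 genes for prorenin processing and uptake, 6 were listed, and Ren1 was higher per kb of exon than each of them. Ctsb, cathepsin B, a lysosomal protease proposed to activate prorenin, had a mean of 35903 normalized counts and 5933 per kb. Ren1 was thus 2.48 times as high as Ctsb per kb of exon but only 0.573 times per kb of coding sequence, so their order depended on the length used. Of the 6051 exonic bases of Ctsb, 774 are shared with the annotated gene Fdft1. M6pr, a receptor that sorts proteins carrying mannose 6-phosphate to lysosomes, had 1062 per kb, and Igf2r, the larger receptor of that kind, 350 per kb. Mbtps1, a protease of the Golgi that cuts the prorenin receptor, had 597 per kb. Pcsk5, a proprotein convertase, had 307 per kb. Klk1b26, a kallikrein known in the mouse salivary gland as a prorenin-converting enzyme, was low at 29.2 normalized counts and 21.0 per kb, and as a member of a family of close paralogs its value is uncertain. Pcsk1 and Furin were not among the listed genes.

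The peptidases that act on angiotensins were, where listed, far below enzyme and substrate. Of 14 such genes 7 were listed, with 11.9 to 609 normalized counts per kb and a median of 172 per kb, close to the median of the matched genes. Ace, angiotensin-converting enzyme, had a mean of 1111 normalized counts and 210 per kb, so that Agt was 382 times and Ren1 70.0 times as high per kb. These ratios compare pooled means, and how much of the Ace value came from cells other than Leydig cells was not tested. The highest of these peptidases was Dpp3, a cytosolic enzyme that degrades angiotensin peptides, with 4723 normalized counts and 609 per kb. Thop1, an oligopeptidase that acts on angiotensin I, had 256 per kb and Prcp, a carboxypeptidase that acts on angiotensin II, 172 per kb. Among the aminopeptidases, Enpep, which shortens angiotensin II, had 132 per kb, Rnpep 86.8 and Anpep 11.9. The chymase gene Cma1, Ctsg, Mme, Nln, Prep, Lnpep and Ctsa were not among the listed genes.

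Of the listed receptors for angiotensin peptides, 1 lay near the median of the matched genes and 1 far below it. Of 8 receptors and receptor partners 5 were listed. Agtr2, the type 2 angiotensin receptor, had a mean of 527 normalized counts and 159 per kb, near the median of the matched genes, and Agt was 506 times as high per kb. Mas1, a receptor for a shortened angiotensin peptide, had a mean of only 21.6 normalized counts and 8.26 per kb, and it was the lowest of all listed genes of the system. Agtr1a and Agtr1b, which encode the type 1 receptor through which most known effects of angiotensin II run, were not among the listed genes and are not analysed here, and neither is Mrgprd. Atp6ap2, the prorenin receptor, which is also a subunit of the vacuolar proton pump found in most cells, was the highest of this group with 2364 normalized counts and 903 per kb. Agtrap, a protein that binds the type 1 receptor and promotes its uptake, had 433 per kb, and Mtus1, a partner of the type 2 receptor, 288 per kb. Ren1 was 16.3 times as high as Atp6ap2 per kb. Taking members, peptidases and receptors together, 14 of 24 genes were listed, and 12 of them had a mean of at least 100 normalized counts. These counts say only how many genes could be described, since the share listed among all genes compared was not determined.

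**Figure D2:**
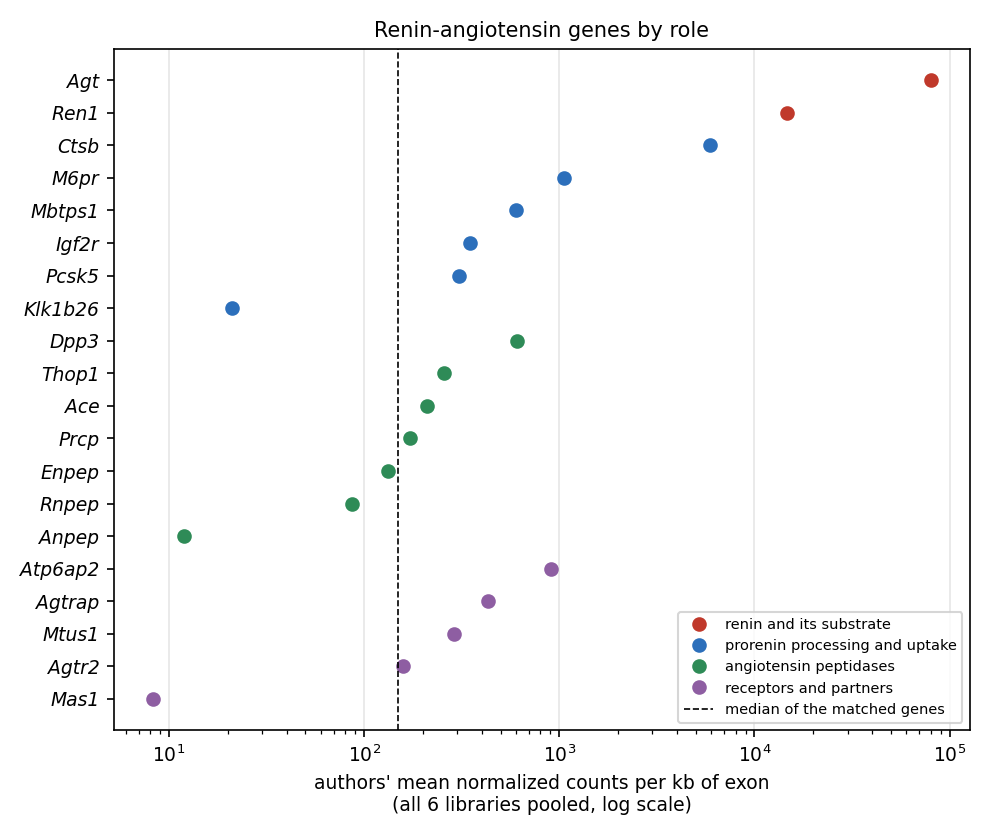
Level of the listed genes of the renin-angiotensin system by role, as the authors' mean normalized counts per kb of exon over all 6 libraries (horizontal, log scale), 1 point per gene. Agt and Ren1 (red) lie at 80186 and 14716 per kb, Ctsb follows at 5933, and the peptidases (green, 11.9 to 609) and the receptors and partners (purple, 8.26 to 903) lie around the dashed median of 148.

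By ancestry Ren1 belongs to the aspartic proteases. Of 7 genes of that family chosen for description 5 were listed. Ctsd, cathepsin D, the main aspartic protease of lysosomes, had 31114 normalized counts and 13234 per kb, close to Ren1. Of the 2351 exonic bases of Ctsd, 808 are shared with the annotated gene Gm49369, so its value is uncertain. Ren1 was 1.11 times as high as Ctsd per kb of exon and 0.799 times per kb of coding sequence, and with no error for either mean the order of these 2 genes cannot be told. Bace1, a membrane-bound protease known for cutting the amyloid precursor protein, had 368 per kb, so that Ren1 was 40.0 times as high. Of the 6348 exonic bases of Bace1, 2061 are shared with other annotated genes. Ctse and Napsa, which are known from the stomach and from lung and kidney, had 6.93 and 2.67 per kb. Renin, a secreted enzyme, and cathepsin D, a lysosomal enzyme, thus held the high end of the family on this list.

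Angiotensinogen is by its fold a serpin, a family named for its inhibitors of serine proteases, although it inhibits none that is known. Of 21 serpins chosen for description 11 were listed, and Agt was the highest of them. Serpina5, the protein C inhibitor, had 22933 normalized counts and 10608 per kb, so that Agt was 7.56 times as high. Serpinh1, a chaperone of collagen, had 2616 per kb, and Agt was 30.7 times as high. Serpina3c had 1508 per kb, Serpina3n 1051 and Serpina3g 220, and as members of a cluster of close paralogs their values are uncertain. Serping1, the inhibitor of complement C1, had 1457 per kb. Serpinf1, pigment epithelium-derived factor, had 569 per kb. Serpina6, the binding protein of glucocorticoids in plasma, had 66.4 per kb and Serpinc1, antithrombin, 42.8 per kb. Exons of Serpinc1 overlap the annotated gene Zbtb37 over 2942 of 8546 bases, so its value is uncertain. The protease inhibitor Serpine2 was the lowest of these 11 serpins, at 5.22 per kb. The alpha-1 antitrypsin genes Serpina1a to Serpina1e, which are abundant in liver, were not among the listed genes and are not analysed here.

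**Figure D3:**
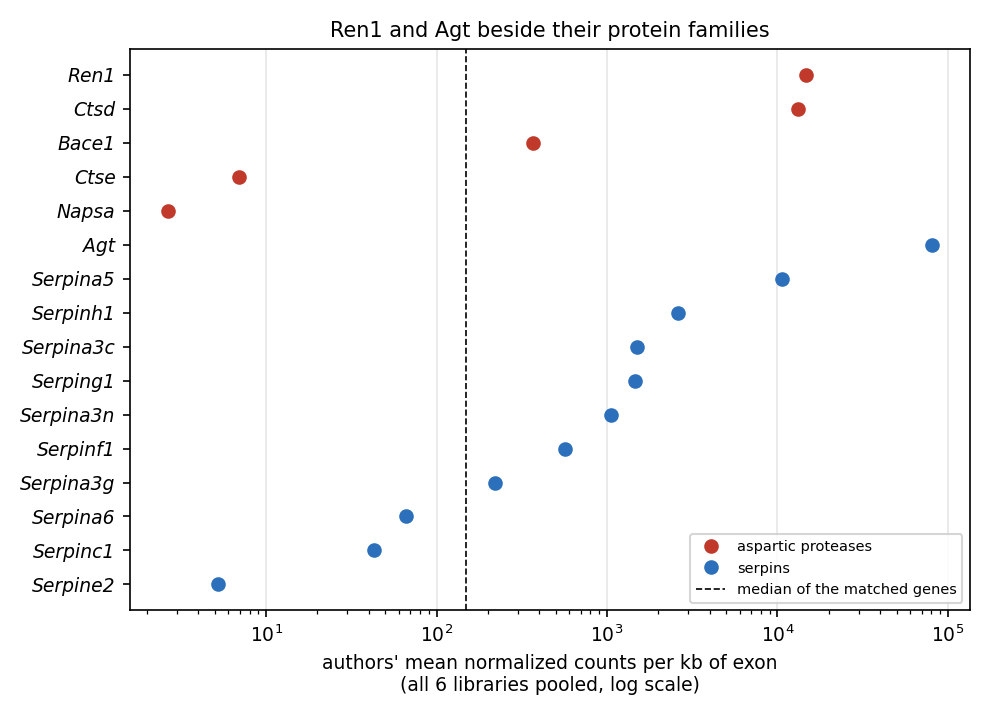
Level of the aspartic proteases (red) and serpins (blue) of the fixed lists that were listed, 1 point per gene. Levels are the authors' mean normalized counts per kb of exon over all 6 libraries (horizontal, log scale). Not every serpin among the listed genes is shown. Ren1 at 14716 and Ctsd at 13234 per kb lie side by side, while Agt at 80186 stands apart from the next serpin shown, Serpina5, at 10608 (dashed line, median of the matched genes).

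Factors known to act on the renin promoter or enhancer in kidney were far below Ren1 where listed. Of 14 such genes 7 were listed, 5 of them above the median of the matched genes. Rxra, a partner of retinoid and vitamin D receptors, was the highest with 793 normalized counts per kb. Hoxd10, a homeodomain protein that binds the proximal renin promoter, had 714 normalized counts and 393 per kb. Nr2f6, a nuclear receptor reported to repress renin, had 343 per kb. Exons of Nr2f6 overlap the annotated gene Ocel1 over 1622 of 2983 bases, so its value is uncertain. The coactivator Crebbp had 240 per kb and Creb1, the factor that responds to cyclic AMP, 97.0 per kb. Rara had 231 per kb and Nr1h3, the oxysterol receptor LXR alpha, 80.2 per kb. Of the other genes of that list, Ep300, Rbpj, Pknox1, Vdr, Usf1, Usf2 and Foxd1 were not among the listed genes.

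For angiotensinogen, whose liver gene responds to glucocorticoids, estrogens and inflammation, 6 of 9 regulators were listed, each of them above the median of the matched genes. Cebpa and Cebpb, leucine zipper factors of liver and fat, led with 1484 and 1347 normalized counts per kb. Exons of Cebpb overlap the annotated gene Tmem189 over 312 of 1504 bases. Rela, a subunit of NF-kappa B, had 768 per kb and Stat3, which carries the signal of interleukins, 458 per kb. The estrogen receptor gene Esr1 had 402 per kb and the glucocorticoid receptor gene Nr3c1 267 per kb. The liver factor Hnf4a was not among the listed genes, nor were Cebpd and Nfkb1.

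Of 9 genes with which juxtaglomerular cells control renin release, 4 were listed. Gnas, the G protein subunit that stimulates cyclic AMP synthesis, had 40066 normalized counts and 3582 per kb. Its exons overlap the antisense genes Gm20721 and Nespas over 2457 of 11186 bases, so its value is uncertain. Gm20721, named after its values were seen, itself had 26468 per kb. Adcy6, an adenylate cyclase, had 188 per kb. Adora1, the adenosine receptor that inhibits renin release, had 99.6 per kb. Exons of Adora1 overlap the annotated gene Mybph over 1162 of 5785 bases, so its value is uncertain. Casr, the calcium-sensing receptor, had 29.0 normalized counts and 6.14 per kb. Adrb1, through which sympathetic nerves release renin in the kidney, and Gja5, the connexin of juxtaglomerular cells, were not among the listed genes, and Adcy5, Prkaca and Prkar1a were not either.

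Genes that were listed from a list drawn up for the mineralocorticoid arm downstream of angiotensin II were low, and some of them act on glucocorticoids. Of 6 genes 4 were listed, each below the median of the matched genes. Cyp11b1, the 11-beta hydroxylase, had 234 normalized counts and 73.8 per kb, and Nr3c2, the mineralocorticoid receptor, had 350 normalized counts and 54.0 per kb. The dehydrogenases Hsd11b2 and Hsd11b1, which inactivate and regenerate glucocorticoids, had 65.9 and 28.3 normalized counts. The aldosterone synthase gene Cyp11b2 and Cyp21a1 were not among the listed genes, so the level of the arm as a whole is not known. In the kallikrein-kinin system, whose peptides Ace degrades, 2 of 5 genes were listed. The protease gene Klk1 had 986 normalized counts and 916 per kb and the kininogen gene Kng2 27.6 and 10.1. Klk1 belongs to the same family of close paralogs as Klk1b26, so its value is uncertain too. The kinin receptor genes Bdkrb1 and Bdkrb2 and Kng1 were not among the listed genes.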

How the data were processed

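The authors sorted strongly fluorescent cells from testes with an Nr5a1-GFP transgene and sequenced 3 FLC and 3 ALC libraries. The paper's methods name a library kit for total RNA, whereas its results speak of poly(A) RNA. Per the labels, reads were demultiplexed with CASAVA 1.8.2 and the build was GRCm38. As the methods state, the authors mapped reads with GemTools, counted them for GENCODE genes with their own pipeline and compared the populations with DESeq2. The only values used are the deposited signal per gene, which the authors obtained by dividing counts by a size factor per library and averaging 6 libraries. It pools both populations. The other 5 columns of that table hold the authors' own comparison (log2 fold change, its standard error, the Wald statistic and its p-value before and after adjustment), and they were not used, except to check that 0 of 10580 genes had an adjusted p of 0.05 or more. A deposited sheet of library names and stages was not used.

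Genes were matched by exact symbol to GENCODE vM21 on GRCm38, and 10205 matched a single gene, whereas 375 did not. Means were divided by the length of the union of exons in kb, with Python 3.11.15 and pandas 2.3.3. The authors' methods name another GENCODE release for the counting, so these lengths may differ from those of the exons that were counted. Overlaps of some other named genes with annotated genes, Napsa and Mtus1 among them, are not given one by one. No test was run, since no value per library was used, and no error can be given. The rank computation was tested on simulated data. Alternatives were the length used, filters at means of 10 and 100, genes without overlap, and older symbols. The genes named are the members and the listed genes of 18 fixed lists, of which a few genes are not reported here and were left out of the counts. Markers of spermatids and macrophages were added after values were seen. Members and lists were chosen with earlier results of these data known. Protein sequences were not used here.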

Additional observations from a re-analysis of the deposited data

How the results depend on the processing

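No paired analysis was possible because the values are means pooled over all libraries and come from no test, and for the same reason no library could be left out. The place of Agt changed little. By mean, 99.9% of the listed genes lay below it, and under the filters and length choices tried its rank stayed between 4 and 11. Ren1 moved more. By mean 99.2% of all listed genes lay below it, 99.0% of those whose mean reached 100 and 99.6% per kb of exon, and per kb of coding sequence 98.99% lay below it at rank 102 of 10141 genes, against rank 38 of 10205 per kb of exon. The level of Ren1 per length was 0.184 times that of Agt with the union of exons, 0.191 with the longest transcript, 0.193 with the coding length and 0.161 with no length. The number of renin-angiotensin genes listed was 14 with older symbols too and 12 at a mean of at least 100, which is no result about the system. Gene orders that rest on small ratios, Ren1 against Ctsd and Ctsb among them, changed with the length used: per kb of coding sequence Agt was 0.716 times as high as Cyp11a1, against 1.67 times per kb of exon. Per kb of coding sequence, Star was 5.08 times as high as Ren1, Ren1 was 13.0 times as high as Bace1 and 8.98 times as high as Atp6ap2, and Agt was 217 times as high as Agtr2 and 20.5 times as high as Serpinh1, all with the direction seen per kb of exon.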
